A study of Mus musculus with 9 samples.

Results

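Integrated stress response regulators were followed in TAMH cells exposed to a bipyridylium herbicide. The 10 genes were Atf4, Ddit3, Atf3, Atf5, Cebpb, Cebpg, Trib3, Nupr1, Ppp1r15a and Sesn2, out of 22180 genes measured, and they were chosen by gene symbol in the array annotation. Each had 1 feature carrying its symbol alone, so all 10 were measured. TAMH is an immortalised mouse hepatocyte line derived from mice carrying a transforming growth factor alpha transgene, and every group, the controls included, was this line. The control group (CON) received medium alone for 9 h, the diquat group (DQ) 18 µM diquat for 9 h, and the paraquat group (PQ) 126 µM paraquat for 9 h. Each group held 3 arrays. The medium of all groups contained dexamethasone, nicotinamide, gentamicin, insulin, transferrin and selenium. The labels mention 3 dishes per treatment and do not state that these were independent cultures, so the tests below reflect only how far the arrays of a group scattered, and that scatter may be technical.

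The integrated stress response is a switch on protein synthesis. Several kinases, each sensing a different stress, phosphorylate the initiation factor eIF2 on its alpha subunit, which slows translation of most messages but favours a few, among them those of ATF4 and ATF5. ATF4 then acts as a transcription factor on genes of amino acid supply and redox balance, pairs with C/EBP proteins on composite sites, and induces further factors such as CHOP (encoded by Ddit3) and ATF3. The response also limits itself: the GADD34 protein, encoded by Ppp1r15a, directs a phosphatase to eIF2, and the pseudokinase TRIB3 binds ATF4 and CHOP and dampens their activity. Diquat and paraquat both take electrons from cellular reductases and pass them to oxygen, giving superoxide. In diquat the nitrogens of both rings are joined by an ethylene bridge, whereas in paraquat each carries a methyl group.

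The promoters of these genes were read for the sites on which ATF4 and its partners are known to act. The genes were chosen for their part in this response, so matches are no test of why they rose. RefSeq promoter sequences of mouse GRCm38.p6, running from 250 bases before to 50 bases after the start, were matched for 10 of the 10 genes, with 11 promoters because Atf5 has 2. The core of the C/EBP-ATF response element, TGATGNAA on either strand, was present in 3 of the 11, against 3.97% of all 32851 promoters in the table. The stretches below carry it in Atf3 and Nupr1, read on the gene's strand, and the capitals mark the match, which lies on the opposite strand at positions -110 to -103 from the start in both genes. The Atf3 stretch is chr1:191183404-191183473 and the Nupr1 stretch chr7:126625541-126625610, both on the minus strand.
Atf3: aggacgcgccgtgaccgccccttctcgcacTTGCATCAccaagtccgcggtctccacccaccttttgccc
Nupr1: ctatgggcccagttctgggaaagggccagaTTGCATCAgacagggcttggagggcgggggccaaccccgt

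The letters matched in Atf3 and Nupr1, TGATGCAA on the motif's strand, occurred in 0.895% of all promoters of the table. In Trib3 the match lay 15 to 22 bases after the start, also on the opposite strand, at chr2:152344028-152344057 on the minus strand. The cyclic AMP response element TGACGTCA, a site for ATF and CREB proteins that reads the same on both strands, was found in Ppp1r15a alone of these genes, at positions -12 to -5, and in 1.79% of all promoters. The Ppp1r15a stretch is chr7:45526269-45526338, minus strand, and again the capitals mark the match.
Trib3: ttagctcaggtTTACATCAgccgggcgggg
Ppp1r15a: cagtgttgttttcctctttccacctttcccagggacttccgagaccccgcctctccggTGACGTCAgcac

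The core of the antioxidant response element, TGACNNNGC, occurred in 3 of the 11 promoters (Cebpb, Sesn2 and Ppp1r15a) and in 12.4% of all promoters. No motif searched overlapped another within these promoters. These matches describe letters in a short window, and binding of any factor was not measured.

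Values are log2 expression from the authors' RMA summary, and between-array correlations across all genes lay between 0.9952 and 0.9991. Diquat replicate 3 stood farthest from its group mates, by 0.134 on the log2 scale (root mean square over genes) against 0.0714 to 0.115 for the others. The 8 hepatocyte markers had control means from 7.31 (Serpina1a) to 12.73 (Alb), with Hnf4a at 10.74, where single values over all features ran from 3.89 to 13.19. The averages of 5 endothelial and 5 macrophage markers lay between 5.67 and 6.34 over all arrays, close to the array medians of 5.95 to 6.04, and that of 5 stellate markers between 6.74 and 6.91. Among these, Cd68 rose with diquat by 0.40 and Col1a1 stood at 9.18 in controls. Hepatocyte markers moved with treatment: 5 of 8 were called lower with diquat and 3 of 8 with paraquat (limma adjusted p under 0.05). Over all genes, 2.89% and 2.24% were called lower. The diquat call of Hnf4a lay at the threshold (limma adjusted p = 0.04999). The average of the 8 markers ranged from 9.89 to 9.96 in controls, 9.58 to 9.62 with diquat and 9.60 to 9.78 with paraquat. The average of 4 cholangiocyte markers lay between 8.765 and 8.845 over all arrays, well above the array medians. In controls Sox9 stood at 10.20, Krt7 at 8.96, Krt19 at 8.31 and Epcam at 7.66. Sox9 rose with both compounds, and Krt7 and Krt19 fell with diquat. The part of these shifts in the results that follow was not tested, and in such samples fewer cells of a type and less RNA per cell cannot be told apart.

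All 10 regulators were called higher with diquat, and 9 of 10 with paraquat, where Cebpb did not pass. The background was 4.13% of 22180 genes called higher with diquat and 2.33% with paraquat, and 2.89% and 2.24% called lower (limma, Benjamini-Hochberg adjusted p under 0.05 over all genes). In all 10 genes, the 3 diquat arrays and the 3 paraquat arrays all lay above the 3 control arrays, which held for 10.1% and 9.05% of all genes. The median change over the regulators was 0.61 on the log2 scale with diquat and 0.66 with paraquat, beside medians of -0.02 and -0.0033 over all genes. Both compounds were compared with the same control arrays. Centring each array on its median, or quantile normalization, left the count at 10 with diquat and 9 with paraquat. Among all genes called with diquat, 58.9% were higher as deposited, 77.5% after centring and 45.2% after quantile normalization.

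**Figure D1:**
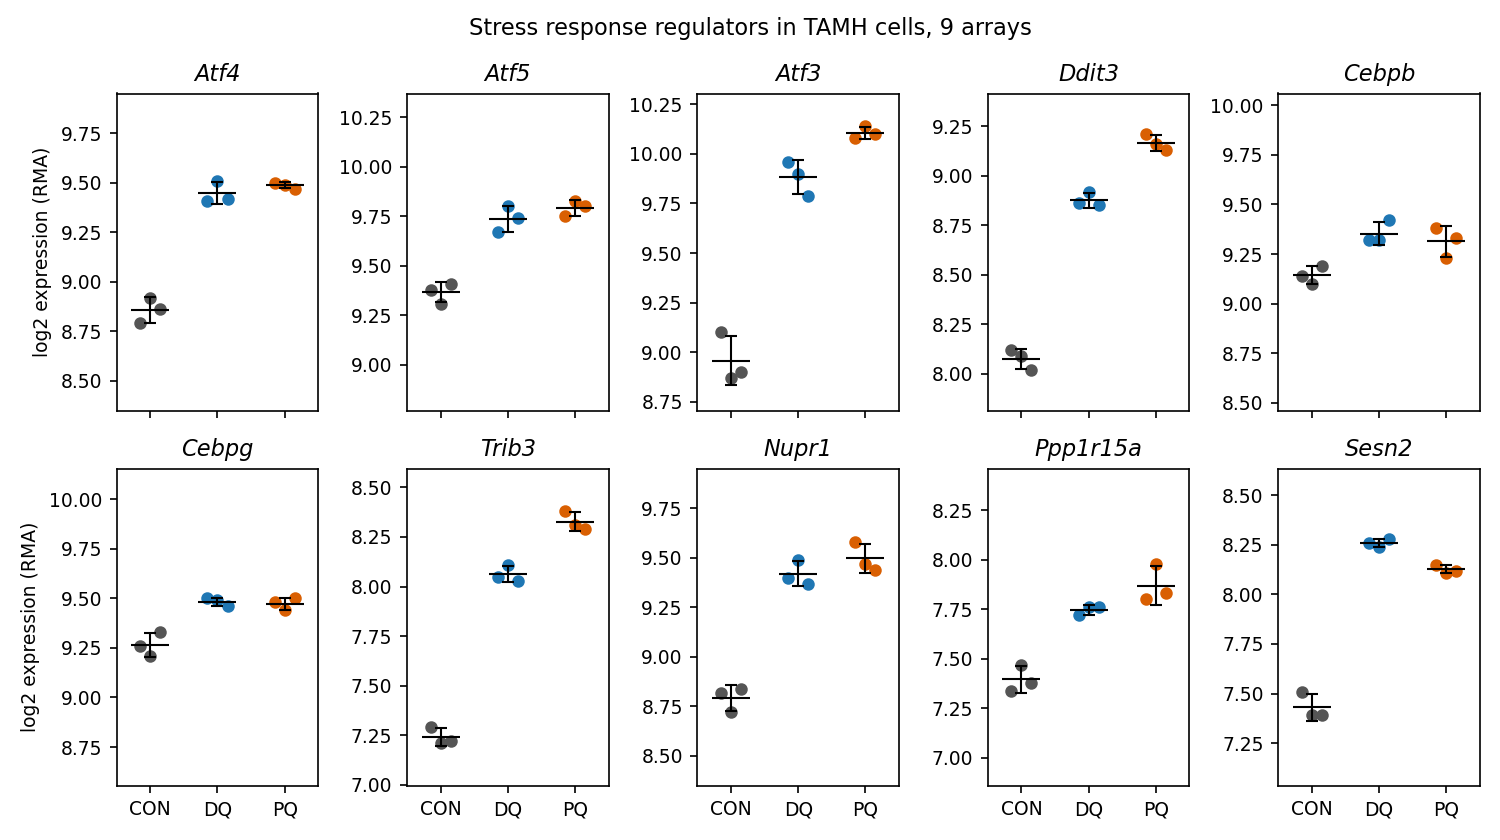
Log2 expression (RMA, vertical axis) of the 10 regulators in control (CON), 18 µM diquat (DQ) and 126 µM paraquat (PQ) arrays; points are single arrays, bars the mean and SD of 3, and every panel spans the same log2 range. In all 10 panels the treated arrays lie above the control arrays, with the widest gaps for Atf3, Ddit3, Trib3 and Sesn2 and the narrowest for Cebpb and Cebpg.

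Atf4, the transcription factor at the centre of the response, stood at 8.79, 8.92 and 8.86 in the control arrays, 9.41, 9.51 and 9.42 with diquat, and 9.50, 9.49 and 9.47 with paraquat. The treated arrays were all above the controls, and the diquat and paraquat arrays overlapped. Atf4 rose 1.51-fold with diquat (log2 change 0.59 ± 0.04 SE, limma adjusted p = 3.88e-05) and 1.55-fold with paraquat (0.63 ± 0.04 SE, adjusted p = 2.80e-05). Atf5, a close relative of ATF4 whose translation is controlled in a similar way, stood at 9.38, 9.31 and 9.41 in controls, 9.67, 9.80 and 9.74 with diquat, and 9.75, 9.83 and 9.80 with paraquat. Atf5 rose 1.29-fold with diquat (0.37 ± 0.05 SE, limma adjusted p = 0.000948) and 1.34-fold with paraquat (0.43 ± 0.05 SE, adjusted p = 0.000553). The order of both genes was control, then diquat, then paraquat, with the last 2 groups overlapping.

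Atf3 and Ddit3 encode factors that ATF4 is known to induce, and Atf3 had the largest rise of the 10 genes with both compounds. Atf3, a bZIP factor gene of the early stress response, stood at 9.10, 8.87 and 8.90 in controls, 9.96, 9.90 and 9.79 with diquat, and 10.08, 10.14 and 10.10 with paraquat. No 2 groups overlapped, and control replicate 1 was the highest control array. The rise was 1.90-fold with diquat (log2 change 0.93 ± 0.06 SE, limma adjusted p = 2.72e-05) and 2.22-fold with paraquat (1.15 ± 0.06 SE, adjusted p = 6.99e-06). Among all 22180 genes, ordered from the largest rise, Atf3 was at place 23 with diquat and at place 11 with paraquat.

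Ddit3, which encodes CHOP, a C/EBP-related factor linked to cell death under prolonged stress, was at 8.12, 8.09 and 8.02 in controls, 8.86, 8.92 and 8.85 with diquat, and 9.21, 9.16 and 9.13 with paraquat. The groups were again separate, in the order control, diquat, paraquat. Ddit3 rose 1.74-fold with diquat (log2 change 0.80 ± 0.04 SE, limma adjusted p = 3.40e-06) and 2.13-fold with paraquat (1.09 ± 0.04 SE, adjusted p = 6.70e-07). It was at place 40 from the largest rise with diquat and at place 14 with paraquat.

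The C/EBP partners changed least. Cebpb, which encodes a C/EBP factor prominent in liver, stood at 9.14, 9.10 and 9.19 in controls, 9.32, 9.32 and 9.42 with diquat, and 9.38, 9.23 and 9.33 with paraquat. Its diquat rise was 1.16-fold (log2 change 0.21 ± 0.05 SE, limma adjusted p = 0.0302), while the paraquat change of 0.17 ± 0.05 SE did not pass (adjusted p = 0.0930), although no paraquat array reached down to the controls. The diquat call was lost when control replicate 1, 2 or 3, diquat replicate 1 or 3, or paraquat replicate 3 was left out, with adjusted p values from 0.0506 to 0.122. Without diquat replicate 3 the change was 0.18.

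Cebpg, which encodes a C/EBP protein that lacks an activation domain of its own and pairs with ATF4, stood at 9.26, 9.21 and 9.33 in controls, 9.50, 9.49 and 9.46 with diquat, and 9.48, 9.44 and 9.50 with paraquat. Both treated groups were above the controls and overlapped each other. Cebpg rose 1.16-fold with diquat (log2 change 0.22 ± 0.04 SE, limma adjusted p = 0.00972) and 1.15-fold with paraquat (0.21 ± 0.04 SE, adjusted p = 0.0150). The paraquat call was lost without control replicate 1 or 2 or paraquat replicate 3, with adjusted p values of 0.0658, 0.0686 and 0.0679.

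Both feedback genes rose. Trib3, the pseudokinase gene, stood at 7.29, 7.21 and 7.22 in controls, 8.05, 8.11 and 8.03 with diquat, and 8.38, 8.31 and 8.29 with paraquat. Its 3 groups were separate, and it rose 1.77-fold with diquat (log2 change 0.82 ± 0.04 SE, limma adjusted p = 2.91e-06) and 2.12-fold with paraquat (1.09 ± 0.04 SE, adjusted p = 6.70e-07). Ppp1r15a, the gene of the eIF2 phosphatase subunit GADD34, was at 7.34, 7.47 and 7.38 in controls, 7.72, 7.76 and 7.76 with diquat, and 7.80, 7.98 and 7.83 with paraquat. It rose 1.27-fold with diquat (0.35 ± 0.05 SE, limma adjusted p = 0.00356) and 1.39-fold with paraquat (0.47 ± 0.05 SE, adjusted p = 0.000774). Every paraquat array was above every diquat array for Ppp1r15a, by a narrow margin at 7.80 against 7.76.

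Nupr1, which encodes a small nuclear protein induced by many stresses, stood at 8.82, 8.72 and 8.84 in controls, 9.40, 9.49 and 9.37 with diquat, and 9.58, 9.47 and 9.44 with paraquat. It rose 1.54-fold with diquat (log2 change 0.63 ± 0.05 SE, limma adjusted p = 8.77e-05) and 1.63-fold with paraquat (0.70 ± 0.05 SE, adjusted p = 4.56e-05), and the treated groups overlapped. Sesn2, whose product sestrin 2 restrains the growth kinase complex mTORC1 and supports antioxidant defence, was at 7.51, 7.39 and 7.39 in controls, 8.26, 8.24 and 8.28 with diquat, and 8.15, 8.11 and 8.12 with paraquat. All 3 groups were separate, and here the diquat arrays were the highest. Sesn2 rose 1.78-fold with diquat (0.83 ± 0.04 SE, limma adjusted p = 2.62e-06) and 1.62-fold with paraquat (0.70 ± 0.04 SE, adjusted p = 9.00e-06).

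The herbicides were then set against each other as given, at 18 µM diquat and 126 µM paraquat, so compound and dose cannot be told apart. None of the 10 regulators passed the test (limma adjusted p from 0.119 to 0.941), and 0% of all genes were called, while 5 regulators and 2371 genes (10.7%) had an unadjusted p under 0.05. Ddit3 was higher with paraquat by 0.29 on the log2 scale (95% interval 0.20 to 0.38), Trib3 by 0.26 (0.17 to 0.35), Atf3 by 0.22 (0.08 to 0.37) and Ppp1r15a by 0.12 (0.01 to 0.24). In these 4 genes all paraquat arrays lay above all diquat arrays, which held for 5.36% of all genes. Sesn2 went the other way, with a paraquat minus diquat difference of -0.13 (95% interval -0.22 to -0.04) and all paraquat arrays below all diquat arrays, as in 5.18% of all genes.

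For the other 5 regulators the interval of the paraquat minus diquat difference included 0. It ran from -0.06 to 0.14 for Atf4, from -0.04 to 0.16 for Atf5 and from -0.04 to 0.19 for Nupr1. For Cebpb it ran from -0.15 to 0.07 and for Cebpg from -0.10 to 0.08. These 95% intervals come from the limma fit and are not adjusted for the number of genes. The smallest adjusted p for Ddit3 under any of the 18 alternative settings was 0.0653, and for Trib3 0.0873.

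**Figure D2:**
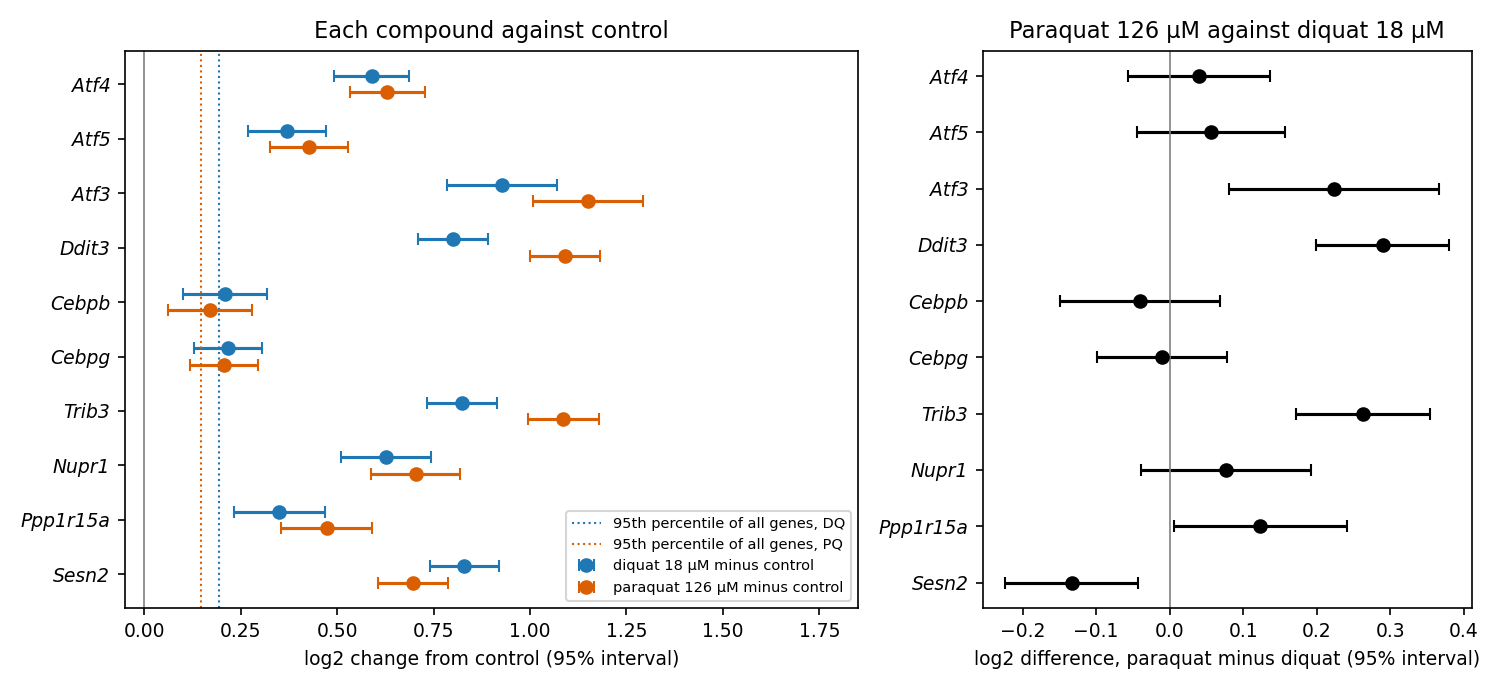
Left, log2 change from control of each regulator with its 95% interval for 18 µM diquat (blue) and 126 µM paraquat (orange), with dotted lines at the 95th percentile of all 22180 genes (0.19 and 0.15). Right, the paraquat minus diquat difference with its 95% interval: Ddit3, Trib3, Atf3 and Ppp1r15a lie to the right of 0, Sesn2 to the left, and the intervals of the other 5 cross 0.

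Genes upstream of ATF4 were examined for comparison. The 21 genes measured encode the eIF2 kinases, 1 eIF2 subunit (Eif2s2), the exchange factor eIF2B, the phosphatase, modulators and the separate factor eIF2A. Eif2s1, the gene of the eIF2 alpha subunit, and Eif2s3x were listed but not among the genes analysed. Of the 21, 1 rose with diquat and 2 rose with paraquat, and 0 fell with either (limma). The shares over all genes were 4.13% and 2.33% called higher, and 2.89% and 2.24% called lower, with diquat and paraquat. The median change was 0.01 with diquat and -0.01 with paraquat. The absence of falls depended on the setting. After quantile normalization 1 rose and 3 fell with diquat, and 1 rose and 2 fell with paraquat. Without diquat replicate 3, 2 rose and 2 fell with diquat, and with array weights 2 rose and 2 fell with paraquat. With the replicate block 1 rose and 1 fell with paraquat. Paraquat also had 1 fall with a trend and a robust prior, the filter on dim genes and the 2 groups alone. The same held without diquat replicate 2 or paraquat replicate 1. Impact, which encodes an inhibitor of the kinase GCN2, rose 1.44-fold with diquat, from 8.92 ± 0.08 to 9.45 ± 0.04 (SD, n = 3; limma adjusted p = 0.000120), and 1.31-fold with paraquat (adjusted p = 0.00110). Ppp1r15b, which encodes the constitutive counterpart of GADD34, rose with paraquat by 0.15 on the log2 scale (limma adjusted p = 0.0362). That call was lost after centring (0.0592), after quantile normalization (0.0893) and on leaving out any control array, any paraquat array or diquat replicate 1, with adjusted p values from 0.0505 to 0.136.

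None of the 4 kinase genes passed with either compound. Eif2ak1, the gene of the heme-regulated kinase, changed by -0.12 with diquat and -0.14 with paraquat on the log2 scale. Eif2ak2, the gene of the RNA-activated kinase PKR, changed by 0.14 and -0.05, Eif2ak3, that of the endoplasmic reticulum kinase PERK, by 0.01 and -0.06, and Eif2ak4, that of GCN2, by 0.14 and 0.08. Eif2ak2 passed with diquat when diquat replicate 2 was left out (log2 change 0.18, limma adjusted p = 0.0420). These are messenger RNA levels, and phosphorylation of eIF2 was not measured.

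Genes that ATF4 or CHOP is known to induce rose along with the regulators. Of 34 measured, 26 rose with diquat and 26 with paraquat, and 0 fell (limma), with median changes of 0.34 and 0.38 on the log2 scale. Beside this, 4.13% and 2.33% of all genes were called higher with diquat and paraquat, and 2.89% and 2.24% lower. The largest change was in Slc7a11, the cystine importer gene, at 7.65 ± 0.18, 10.27 ± 0.07 and 10.05 ± 0.06 (SD, n = 3 each) in control, diquat and paraquat arrays. With the mean of its features in place of the brightest, its log2 change was 1.71 instead of 2.62 with diquat and 1.56 instead of 2.40 with paraquat. Adm2, the gene of the peptide hormone adrenomedullin 2, went from 7.08 ± 0.06 to 8.36 ± 0.12 and 8.51 ± 0.10 (SD, n = 3 each). Chac1, which encodes a glutathione-degrading enzyme, and Slc1a4, a neutral amino acid transporter gene, rose by 1.04 and 0.72 with diquat and by 1.17 and 0.89 with paraquat. Some known targets did not pass with either compound: Ddit4, which encodes another brake on mTORC1, changed by 0.03 and 0.01, and the stress hormone gene Fgf21 by -0.03 and -0.02. The last 2 genes were picked out after their values were seen.

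Most genes of the families to which the regulators belong did not pass the test. Of 24 related bZIP, C/EBP, tribbles, sestrin and phosphatase subunit genes, 2 rose and 1 fell with diquat (limma). With paraquat 3 rose and 0 fell, the third being Ppp1r15b. Over all genes, 4.13% were called higher and 2.89% lower with diquat, and 2.33% and 2.24% with paraquat. Taking both directions together, relatives were thus not called less often than genes at large, though these calls are few. Ppp1r15b is also on the eIF2 list above, and Atf6 is also among the endoplasmic reticulum genes below. Jdp2, a bZIP repressor gene that is also on the list of ATF4 and CHOP targets, rose by 0.29 with diquat and 0.45 with paraquat, and Atf6, the gene of a membrane-bound sensor of the endoplasmic reticulum, by 0.34 and 0.25. The Jdp2 call with diquat was lost without control replicate 2 or 3 or diquat replicate 1 (adjusted p = 0.0606, 0.0687 and 0.0640). Among the sestrins, Sesn3 fell with diquat by 0.23 on the log2 scale, from 9.15 ± 0.03 to 8.92 ± 0.10 (SD, n = 3; limma adjusted p = 0.0228), and its paraquat change of -0.18 did not pass (adjusted p = 0.0886). The paraquat change did pass in 4 of 18 alternatives: array weights (limma adjusted p = 0.0220), without diquat replicate 2 (0.0271), quantile normalization (0.0308) and the 2 groups alone (0.0309). The diquat call of Sesn3 was lost without control replicate 1, 2 or 3 (adjusted p from 0.0585 to 0.0974), after centring (0.0898) and with diquat and control arrays fitted alone (0.0693). Sesn1 changed by -0.03 and -0.11, the tribbles genes Trib1 by -0.02 and 0.06 and Trib2 by -0.01 and 0.02, Cebpa by -0.04 and -0.04 and Cebpd by 0.00 and -0.09, with diquat and paraquat respectively, none past the test. The small diquat changes of Sesn1, Trib1 and Trib2 turned positive after centring. Cebpd and Trib2 lay at 5.86 and 5.90 in controls, below the array medians, where signal and background cannot be separated here.

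**Figure D3:**
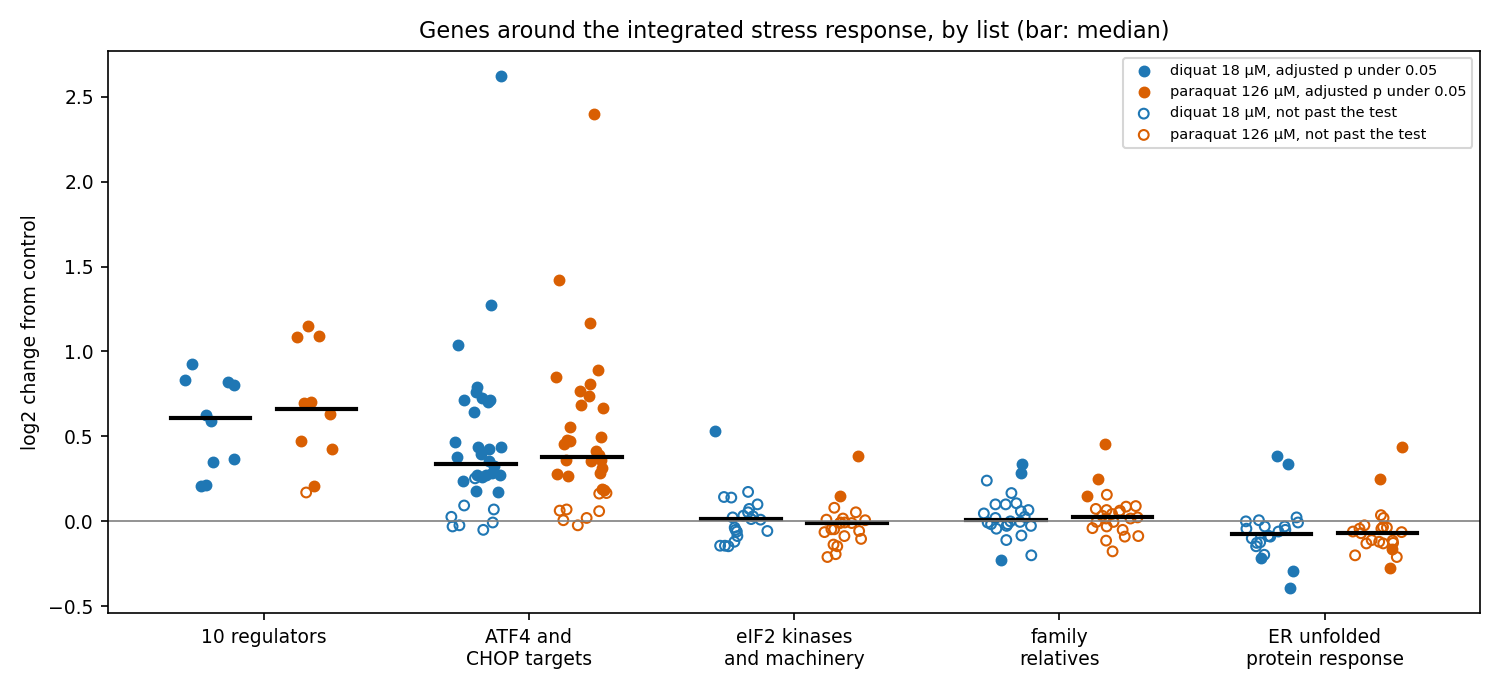
Log2 change from control (vertical axis) of each gene in 5 lists for diquat (blue) and paraquat (orange); filled points passed limma's adjusted p, open points did not, and black bars are list medians. The regulators and the ATF4 and CHOP targets lie mostly above 0, with medians from 0.34 to 0.66, while the medians of the other lists lie between -0.07 and 0.03.

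Chaperone and sensor genes of the endoplasmic reticulum, whose unfolded protein response shares the kinase PERK with this pathway, averaged slightly lower with treatment. As deposited, their average ranged from 9.87 to 9.90 in control arrays, 9.80 to 9.86 with diquat and 9.81 to 9.86 with paraquat. The 2 genes called higher with each compound were the sensor genes Ern1 and Atf6, and no chaperone gene was called higher. Of 22 measured, 2 rose and 3 fell with diquat, and 2 rose and 2 fell with paraquat (limma), with median changes of -0.07 with each compound. For comparison, 4.13% of all genes were called higher and 2.89% lower with diquat, and 2.33% and 2.24% with paraquat. The number that fell became 5 with diquat and 4 with paraquat after quantile normalization, and 3 and 1 after centring, while 2 rose with each compound in both. Hspa5, the gene of the chaperone BiP, stood at 10.18 ± 0.01, 10.21 ± 0.02 and 10.22 ± 0.03 (SD, n = 3 each) in control, diquat and paraquat arrays and did not pass. Ern1, the gene of the sensor IRE1, rose by 0.39 with diquat and 0.44 with paraquat, while Xbp1, whose message IRE1 splices, fell by 0.39 with diquat (limma adjusted p = 0.00195) and changed by -0.20 with paraquat (adjusted p = 0.0686). Sdf2l1, a chaperone cofactor gene, fell by 0.29 with diquat and 0.28 with paraquat. The paraquat change of Xbp1 passed in 6 of 18 alternatives: array weights (limma adjusted p = 0.0123), quantile normalization (0.0141), without diquat replicate 3 (0.0176), the 2 groups alone (0.0321), a trend with a robust prior (0.0395) and the filter on dim genes (0.0438).

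Outside these 10 genes, 223 genes differed from control by at least 0.5 on the log2 scale with either compound, and those were ordered by their correlation over the 9 arrays with the mean of the regulators. That mean lay between -0.02 and 0.02 of the control average in control arrays, between 0.56 and 0.60 with diquat and between 0.65 and 0.68 with paraquat. The closest was Cth, the cystathionine gamma-lyase gene of cysteine synthesis (Pearson r = 0.996), at 9.88 ± 0.05 in controls, 10.60 ± 0.02 with diquat and 10.73 ± 0.04 with paraquat (SD, n = 3 each). It was followed by Tsc22d2 (r = 0.995), the MAP kinase phosphatase gene Dusp5 (0.992), Adm2 (0.991) and the transcript 2410006H16Rik (0.990). Tsc22d2 rose by 0.54 and 0.59, Dusp5 by 0.83 and 0.87, and 2410006H16Rik by 0.63 and 0.71 with diquat and paraquat. Cth and Adm2 are also on the list of ATF4 and CHOP targets. All genes share the same 9 arrays and the same step between control and treated groups, so these correlations describe the arrays and carry no test.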

How the data were processed

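TAMH cells were profiled on Affymetrix Mouse Gene 2.1 ST arrays, 3 per group; the titles gave each array its group and number. The deposited values are log2 expression that the authors made with Affymetrix Expression Console 1.1 and RMA, per the submitters' processing notes; RMA settings: not given in the sources used here. Precision is limited by having 3 arrays per group. Of 34472 features, 23521 carried 1 gene symbol in the platform annotation, 1814 several and 9137 none; 23328 matched the RefSeq table of GRCm38.p6 by Entrez identifier. The feature with the highest mean over 9 arrays was kept, giving 22180 genes. All arrays entered 1 fit in limma 3.58.1 (R 4.3.3; lmFit, eBayes, no covariates), with Benjamini-Hochberg adjustment over all genes and a threshold of 0.05. The fit was tested on simulated data. The regulators, lists, tests and settings were chosen with earlier results of these data known. Genes named were the 10 regulators, 13 fixed relatives, sensors and kinases, up to 4 per list with the largest change past the test, and the 5 most alike in pattern; others are said to be chosen after their values were seen. Marker genes are given beside them. Of the list entries, 10 were not analysed here.

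The groups share numbers in the titles, but for treated replicates 2 and 3 the description field says 1. Deviations of same-numbered arrays from their group means correlated between -0.19 and 0.20, and those of differently numbered arrays between -0.33 and 0.28. Between control and paraquat, same-numbered arrays correlated at 0.16, 0.13 and 0.09, and differently numbered ones between -0.12 and -0.02. Because the descriptions disagree with the titles, the main fit did not pair the arrays. Alternatives were the replicate block, a trend with a robust prior, a filter keeping genes with a mean of at least 6 in any group, centring, quantile normalization, the 2 groups compared alone, the mean of a gene's features, every feature, array weights and leaving out each array.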

Additional observations from a re-analysis of the deposited data

How the results depend on the processing

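Across 18 alternatives per comparison, 9 or 10 of the 10 regulators were called with diquat, 8 to 10 with paraquat and 0 between the compounds. With the replicate block, 1416 genes were called with diquat and 930 with paraquat, with 10 and 9 regulators among them; of the named genes Ppp1r15b lost its paraquat call (adjusted p = 0.0783). Genes called with diquat moved to 959 with the 2 groups alone and ranged from 802 to 1908 on leaving out 1 array. With paraquat they moved to 1623 with array weights and ranged from 574 to 1197 on leaving out 1 array. Between the compounds they went from 0 to 4 with the filter on dim genes, 1 after centring, 4 after quantile normalization and 0 to 3 on leaving out 1 array. In the eIF2 list, genes called with diquat moved to 2 after centring, 4 after quantile normalization, 2 with array weights and 1 to 4 on leaving out 1 array; with paraquat they moved to 1 after centring, 4 with array weights and 1 to 3 on leaving out 1 array. Relatives called with diquat ranged from 1 to 4 on leaving out 1 array. Cebpb passed with paraquat under array weights (adjusted p = 0.0267).

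Signs turned for changes near 0. With diquat, centring gave 0.0083 for Sesn1, 0.018 for Trib1 and 0.028 for Trib2, and quantile normalization gave -0.022 for Eif2ak3 and 0.024 for Trib2. On leaving out 1 array, the diquat change ranged from -0.01 to 0.035 for Eif2ak3, -0.10 to 0.058 for Sesn1, -0.065 to 0.015 for Trib1 and -0.017 to 0.01 for Trib2. The paraquat minus diquat difference ranged from -0.073 to 0.0017 for Cebpb and -0.023 to 0.0067 for Cebpg, and was 0.012 for Cebpg after quantile normalization. The cause of these shifts was not tested. With 3 arrays per group, small changes such as those of Cebpb and Cebpg lie near the limit of the test.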
